A study of Mus musculus with 51 samples.

Results

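Neutrophils labelled RELB-/- were compared with wild-type neutrophils without a stimulus. The comparison used every sample whose labels gave the RELB-/- genotype with DMSO and every wild-type sample of the same sequencing table with DMSO. That made 4 of the 51 samples of the series, 2 libraries in each group. The study examined how transcription is controlled in mouse neutrophils that enter a zymosan-inflamed air pouch, and used a cell line alongside. That line is ER-Hoxb8, a myeloid progenitor held immature by an estrogen-dependent Hoxb8 protein, which matures into neutrophils once estrogen is withdrawn. All 4 cultures had matured for 5 days in medium with 20 ng/mL G-CSF and 4% supernatant of cells that secrete stem cell factor. They then received the vehicle DMSO for 2 h. The vehicle and the cytokines were therefore common to both groups, and the labels differed in the RELB-/- genotype. Whether the wild-type and RELB-/- lines came from the same animal is not given in the sources used here, so that line and genotype cannot be told apart. Counts of the Y-linked gene Ddx3y were 14 and 17 in the wild-type libraries and 0 in both RELB-/- libraries. Those of the X-linked gene Xist were 3885 and 4406 in wild type and 3855 and 3550 in RELB-/-, so Xist was expressed in both. How the knockout was made, and from how many clones, is not given in the sources used here. The labels do not say that the 2 libraries of a group came from separate cultures, so the p-values below measure only the spread between these libraries.

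RelB is 1 of 5 NF-kB subunits, the transcription factors that switch on many inflammatory genes. It does not work as a pair with itself and acts mainly joined to p52, which is cut from the p100 precursor encoded by Nfkb2. In the alternative pathway, receptors such as the lymphotoxin beta receptor stabilize the kinase NIK, p100 is cut, and the RelB and p52 pair enters the nucleus. In the classical pathway, Toll-like and cytokine receptors release RelA and c-Rel from IkB proteins. Both Relb and Nfkb2 are themselves transcribed under classical NF-kB control. Neutrophils carry ready-made granules and make cytokines and chemokines quickly when NF-kB is activated.

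The 4 libraries held 27288746 to 30219753 counted fragments, and the 12 libraries fitted together, which also included IRF5-/- cultures and zymosan-treated cultures, held 24031483 to 34263252. Levels below are in CPM, counts scaled by library size with TMM factors. Changes are log2 ratios of RELB-/- over wild type, and a gene was called when the edgeR quasi-likelihood test gave a Benjamini-Hochberg adjusted p under 0.05. Of 13779 genes tested, 8188 were called, or 59.4%. Higher calls in libraries labelled RELB-/- numbered 4426 (32.1%) and lower calls 3762 (27.3%). Replicates were close, with a biological coefficient of variation of 0.0190, and many small differences passed. Calls of at least 2-fold numbered 2092 (15.2%), of which 557 were higher (4.04% of genes tested) and 1535 lower (11.1%), so 73.4% of these larger differences were falls. The median change over all genes tested was 0.04. These shares and this median are the background for each list's counts below. Which direction held the majority of all calls depended on the fit: the lower share was 45.9% here, and between 45.8% and 52.7% in the other fits.

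The targeted gene, Relb (chr7:19606217-19629438, mm10), stood at 168 and 172 CPM in the wild-type libraries and at 68.3 and 67.5 CPM in those labelled RELB-/-. The groups did not overlap, and the change was -1.32 (SE 0.029, adjusted p = 5.77e-53), or 2.5-fold lower. This fall did not single out the RELB-/- label. In a fit of 16 libraries that added the RUNX1-/- and KLF6-/- cultures with DMSO from a table deposited later, and whose CPM scale differs, mean Relb was 195 CPM in wild type and 75.9 in RELB-/-. It was 80.9 in IRF5-/-, 85.1 in RUNX1-/- and 100 in KLF6-/-, so all 4 knockouts in that fit lay below wild type. Irf5, the gene targeted in the IRF5-/- cultures, was lower in the libraries labelled RELB-/- (38.4 and 39.1 CPM) than in those labelled IRF5-/- (81 and 81.8 CPM), with 95.7 and 101 CPM in wild type. Counts cover the whole gene and do not show whether a transcript is intact, so neither gene's level checks its label by itself. Group names below are the labels as given.

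**Figure D1:**
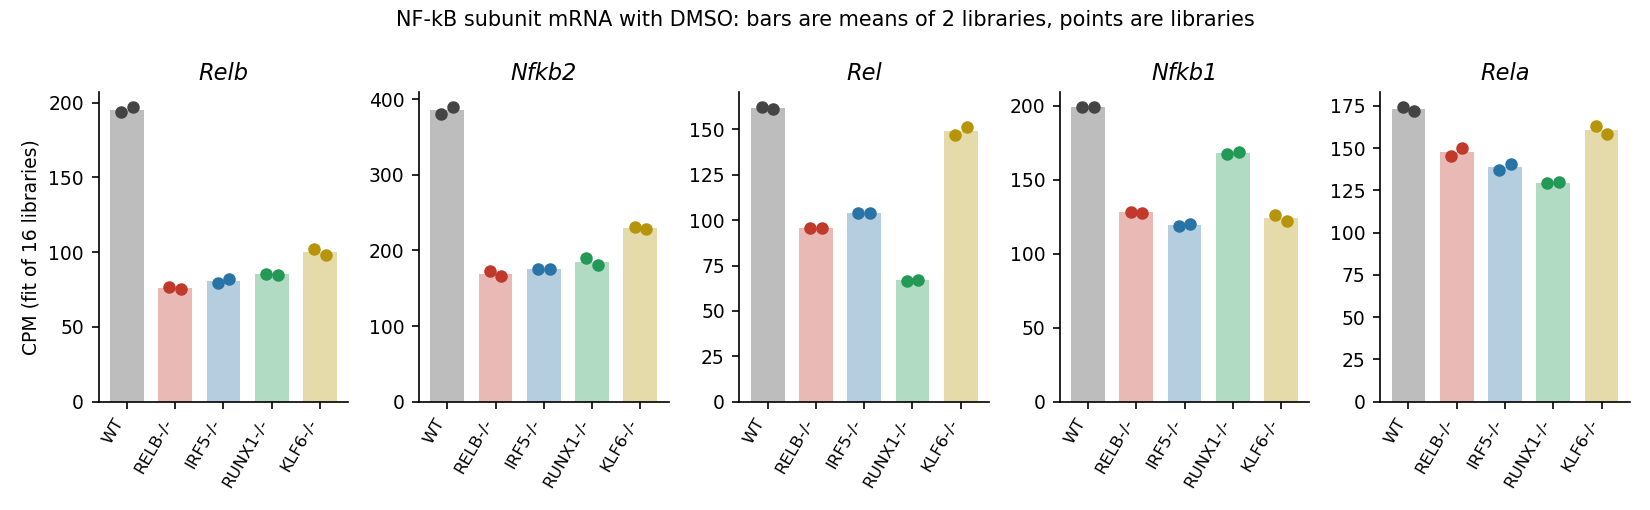
CPM of the 5 NF-kB subunit genes with DMSO in wild type, RELB-/-, IRF5-/-, RUNX1-/- and KLF6-/- libraries, on the scale of the 16-library fit. Bars are means and points the 2 libraries of each group. Relb and Nfkb2 lay below wild type in all 4 knockouts, with Relb means between 75.9 and 100 CPM against 195.

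The cell type labels were checked against marker genes. The 12 neutrophil markers summed to 53939 and 51733 CPM in wild type and 59357 and 59016 CPM in RELB-/-. All were expressed, 10 were called higher and 2 lower, and S100a9 was the most abundant gene in all 4 libraries (21887 and 21186 against 21217 and 20909 CPM). The call of S100a9 itself (-0.032) was lost without wild-type library 1, without RELB-/- library 2 and with DESeq2. The other defining markers Csf3r (0.19), Mmp8 (0.87) and Cxcr2 (0.65) were higher. In such bulk libraries, fewer cells of a type and less RNA per cell cannot be told apart.

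Eosinophil genes were present in wild type and much lower in RELB-/-. The 9 markers summed to 4439 and 4333 CPM in wild type, and to 479 and 487 CPM in RELB-/-. Of the 9, 8 were called lower and 1 higher, with a median of -3.81, and none was at 0 in either group. Prg2, the eosinophil major basic protein, fell from 2998 and 2926 CPM to 202 and 203 CPM (-3.87, SE 0.021). Prg3 fell from 143 and 134 CPM to 8.6 and 10.1 CPM (-3.89). The eosinophil ribonuclease genes Ear1 (-4.08), Ear2 (-5.27) and Ear6 (-3.76) fell from mean wild-type levels of 211, 196 and 347 CPM, and since they are near copies their reads may be divided uncertainly among them. Siglecf, an eosinophil surface lectin, went against the rest and rose from 101 and 104 to 185 and 193 CPM (0.88). A low Prg2 was common to the knockouts: in the 16-library fit its means were 3404 CPM in wild type, 226 in RELB-/-, 494 in IRF5-/-, 337 in RUNX1-/- and 300 in KLF6-/-.

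Mast cell and basophil genes fell as well, with all 10 tested members called lower (median -4.00, or -3.82 with 2 genes at their bound). Their summed level was 852 and 848 CPM in wild type and 480.5 and 486 CPM in RELB-/-. Nearly all of it was Hdc, histidine decarboxylase, which neutrophils also express. The defining proteases Cpa3 (17.4 and 18.4 to 0.735 and 0.867 CPM, -4.48), Tpsb2 (6.27 and 5.66 to 0.0711 and 0.131 CPM, -5.84) and Prss34 (11.7 and 12 to 0.806 and 0.604 CPM, -4.05) were low in wild type and near 0 in RELB-/-. Cma1 and Mcpt4 were at 0 in RELB-/-. Cma1, mast cell chymase, had 205 and 246 counts in wild type and none in RELB-/-, at least 149-fold lower when 3 counts over the group are taken as the limit.

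Monocyte and macrophage markers summed to 1329 and 1316 CPM in wild type and 1140.1 and 1134 CPM in RELB-/-. Of 13, 10 were called lower and 3 higher (median -1.63), with C1qa at 0 in RELB-/-, Cx3cr1 at -2.86 and the chemokine receptor gene Ccr2 at 0.93. Of 7 dendritic cell markers tested, 4 were called lower and 3 were not called, with summed levels of 92.8 and 95.2 CPM against 24.3 and 24.6 CPM. Most of that was Cd74, the invariant chain of MHC class II, which fell from 64.2 and 65.3 CPM to 8.46 and 7.56 CPM (-3.01). Progenitor markers showed 6 of 7 lower, but Cd34, a surface antigen of early progenitors, rose from 10.9 and 13.2 CPM to 69.4 and 70.9 CPM (2.54, SE 0.062), the largest rise among genes with a mean of 16 CPM or more. Megakaryocyte markers were lower for all 4 tested (median -3.41), among them Itga2b (16.1 and 15.5 to 4.55 and 4.36 CPM, -1.82). Markers of B cells, T and NK cells, erythroid cells and stroma were mostly below the filter, with 1, 4, 1 and 2 members tested. These marker levels moved with the groups, and their part in the differences below was not tested.

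**Figure D2:**
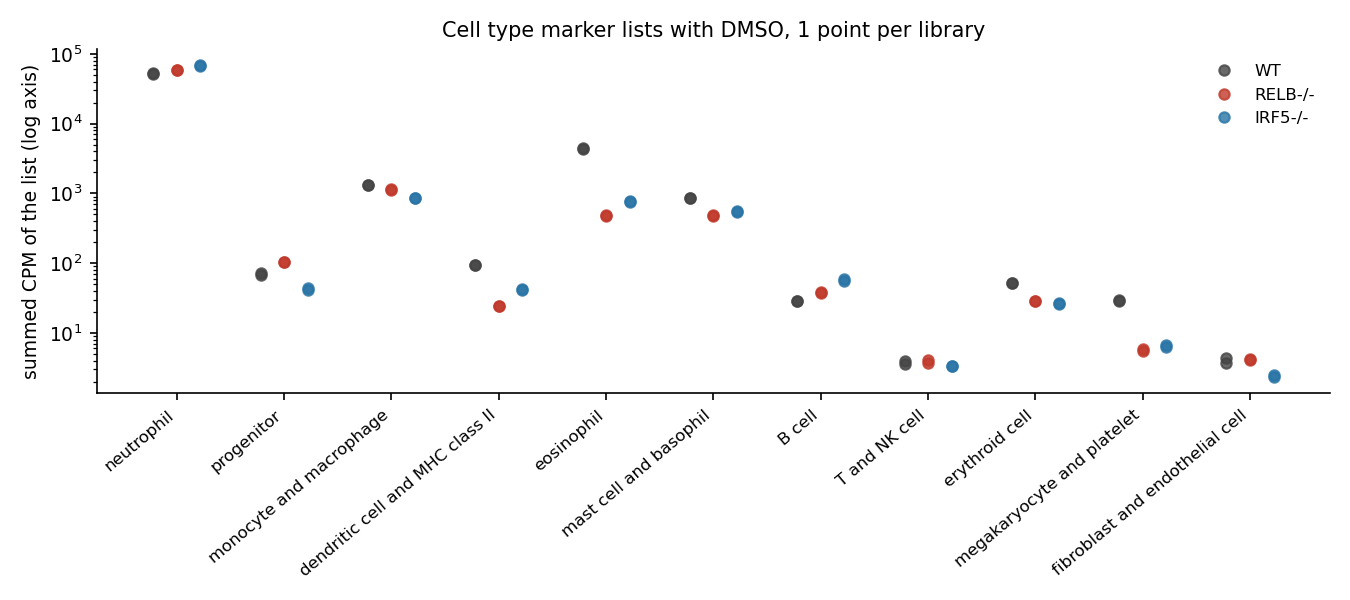
Summed CPM of 11 marker lists on a log axis in wild type, RELB-/- and IRF5-/- libraries with DMSO, 1 point per library (replicates mostly overlap). The eosinophil list fell from 4333 CPM or more in wild type to 487 or less in RELB-/-, while the neutrophil list was at 51733 CPM or above in every library drawn.

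All 5 subunit genes were called lower, against 27.3% of all genes, 2 of them by 2-fold or more, and their median change was -0.72. Nfkb2, which encodes p100 and p52, RelB's partner, fell from 331 and 339.7 CPM to 154 and 149 CPM (-1.14, SE 0.022). Rel, which encodes c-Rel, fell from 141 and 140.5 CPM to 85.4 and 85.8 CPM (-0.72). Nfkb1, which encodes p105 and p50, fell from 173 and 173 CPM to 115 and 114 CPM (-0.60). The smallest fall was that of Rela, the main classical subunit, from 152 and 149.8 CPM to 130.1 and 135 CPM (-0.19, SE 0.028). No library of one group reached the range of the other for any of the 5. Per kilobase of exon, the mean wild-type levels ran from 102 CPM per kilobase for Nfkb2 through 55.5 for Rela, 43.7 for Relb and 18.9 for Rel to 14.4 for Nfkb1. In RELB-/- libraries Rela was the highest at 48.7 CPM per kilobase, followed by Nfkb2 at 46.1 and Relb at 17.5.

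The alternative pathway was mixed. Of 14 members tested, 3 were called higher, 7 lower and 4 were not called, with a median of -0.14. TNF receptor 2, encoded by Tnfrsf1b, fell from 1959.6 and 1978 CPM to 1035 and 1051 CPM (-0.92). Traf3, which holds NIK down, went from 153 and 156 CPM to 96.8 and 97.5 CPM (-0.67), and Birc3, the ubiquitin ligase cIAP2 that acts with it, from 379 and 378 to 225 and 220.1 CPM (-0.77). Tnfrsf11a, which encodes the receptor RANK, was low throughout, at 1.91 and 2.47 CPM in wild type and 0.0948 and 0.105 CPM in RELB-/- (-4.40). NIK itself, Map3k14, was at 39.5 and 38.2 CPM against 36.3 and 36 CPM, and its difference of -0.11 was not called (adjusted p = 0.0687), although 6 of the other fits called it, with adjusted p between 0.0025 and 0.0373. Rises were seen for Nlrp12, a negative regulator of NF-kB signalling, from 54.9 and 55.5 to 114 and 117 CPM (1.07), and for Ltbr, the lymphotoxin beta receptor, from 64.4 and 64.9 to 80.8 and 81.3 CPM (0.33). The third called rise, Peli1 at 0.10, was lost in 10 of the other fits. The receptor gene Cd40 had a single count in the 2 RELB-/- libraries and 0.235 and 0.353 CPM in wild type.

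Classical pathway genes showed no common direction, with 8 of 17 called higher, 5 lower and a median of 0.082, close to that of all genes. Card9, the adaptor of the zymosan receptor Dectin-1, rose from 135 and 136 CPM to 207 and 211 CPM (0.63), and Irak4, the proximal kinase of Toll-like receptors, from 43 and 43.3 to 64.3 and 60.8 CPM (0.54). Falls were found for Irak2 (157 and 156 to 95.6 and 96.6 CPM, -0.70), a further kinase of that complex, and for Bcl10 (206 and 209 to 146 and 147 CPM, -0.50), which acts with Card9. Traf1, itself an NF-kB-induced adaptor, was at 2.17 and 1.74 CPM in wild type and 0.0474 and 0.105 CPM in RELB-/- (-4.62).

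The inhibitors of NF-kB, most of which are also its targets, were lower as a group. Of 17 IkB and feedback genes, 14 were called lower against 27.3% of all genes, 8 of them by 2-fold or more against 11.1%, and 1 was called higher, with a median of -0.87. Nfkbia, which encodes IkB alpha, stood at 1053 and 1022 CPM in wild type and at 436 and 450.5 CPM in RELB-/- (-1.23). Tnfaip3, the deubiquitinase A20, went from 343 and 336 CPM to 100.4 and 105 CPM (-1.72, SE 0.023). The groups were far apart relative to their spread in both cases. The IkB genes Nfkbie (112 and 113 to 37.8 and 38.6 CPM, -1.56), Nfkbid (215 and 216 to 79.7 and 81.5 CPM, -1.42) and Nfkbiz (298 and 308 to 97.1 and 98.2 CPM, -1.63) fell likewise. Bcl3, an IkB family member that lies near Relb on chromosome 7, did not pass (193 and 194 against 195 and 195 CPM, 0.008, adjusted p = 0.809), and its sign turned under other settings. Tnip2, a partner of A20, rose from 15.7 and 14.6 to 28.1 and 28.2 CPM (0.89).

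Of 26 NF-kB target genes tested, 22 were called lower against 27.3% of all genes, 19 of them by 2-fold or more against 11.1%, 2 were called higher, and the median was -2.04 (-1.87 with the 4 genes that had no count in 1 or both groups set at the bound their counts allow). Ptgs2, the inducible cyclooxygenase, fell from 137 and 134 CPM to 16.2 and 16 CPM (-3.07, SE 0.033). Cxcl2, a neutrophil-attracting chemokine, fell from 546 and 532 CPM to 73.1 and 70.7 CPM (-2.91), or 7.5-fold. In both genes the RELB-/- libraries lay within 4 CPM of each other and far below wild type. The adhesion ligand gene Icam1 (322 and 326 to 64.2 and 60 CPM, -2.38) and the cytokine genes Tnf (506 and 497 to 139.9 and 143 CPM, -1.82) and Il1b (1991 and 1994 to 612 and 605 CPM, -1.71) were also lower. Cxcl3 (-3.80) and the survival gene Bcl2a1b (-3.10), whose reads may be shared with near-identical Bcl2a1 copies, fell from single-digit CPM. The exceptions were Nos2, which makes nitric oxide and rose from 58.8 and 58.6 to 124 and 129 CPM (1.11), and Bcl2l1, the survival protein Bcl-xL, which rose by 0.34. The 2 uncalled genes, Cxcl1 and Il12b, had next to no counts in either group. Chemokine and lymphoid genes known as targets of the alternative pathway were mostly silent: 10 of 13 fell below the count filter. The 3 tested did not move together. Icosl, a costimulatory ligand, fell from 209 and 218 CPM to 72.5 and 71.4 CPM (-1.57). Tnfsf13b, the B-cell survival factor BAFF, rose from 0.679 and 0.376 CPM to 3.06 and 3.6 CPM (2.66), and the chemokine receptor gene Cxcr5 was not called.

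Promoter stretches of 3 textbook NF-kB targets that fell follow, with capitals at each match to the kB pattern on either strand (GGG, then 5 bases of any kind, then CC), overlapping matches merged. They were read from RefSeq's GRCm38.p6 table, upstream of the start site, and the genes shown were picked after their values were seen. Each is given 5′ to 3′ on the gene's own strand.
Cxcl2, chr5:90903782-90903850, plus strand: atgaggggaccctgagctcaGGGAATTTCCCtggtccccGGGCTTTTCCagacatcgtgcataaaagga
Nfkbie, chr17:45555574-45555643, plus strand: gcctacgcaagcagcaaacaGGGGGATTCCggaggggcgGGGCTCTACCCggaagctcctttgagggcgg
Cxcl10, chr5:92348963-92349068, minus strand: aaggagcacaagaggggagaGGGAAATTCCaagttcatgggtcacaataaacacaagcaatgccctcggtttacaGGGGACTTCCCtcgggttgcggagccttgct
The pattern is short and common. Within 250 bases before to 50 after the start site it was present in 71.2% of the 9518 tested genes that had a promoter in the table, and in 50.8% of all 32851 promoters. Among the genes called lower by 2-fold it was present in 70.6% and among those called higher in 68.6%. It was present for 13 of the 16 inhibitor genes with a promoter and for 13 of the 21 target genes. A match is a run of letters and not a shown binding site.

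Among 16 cytokine genes tested, 12 were called lower against 27.3% of all genes and 4 higher against 32.1% (median -0.88, or -0.79 with the 2 genes without a count in 1 group at their bound). Csf1, macrophage colony-stimulating factor, fell from 1212 and 1202 CPM to 329 and 328 CPM (-1.88), the largest absolute loss in the list. Il1rn, the IL-1 receptor antagonist, went from 615 and 615 to 213 and 215 CPM (-1.52), in the same direction as Il1b. Lif (-0.84) and Il18 (-0.91) fell from lower levels. The largest rise was that of Il15, a lymphocyte growth factor, from 6.37 and 7.05 to 11.8 and 10.9 CPM (0.75).

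Of 10 chemokine genes tested, 9 were called lower and Cxcl15, close to 0 CPM in every library, was not called, with a median of -3.15 (-2.78 with 2 genes at their bound). The summed level of the list fell less, from 897 and 878 CPM in wild type to 579 and 572 CPM in RELB-/-. Cxcl10, an interferon- and NF-kB-induced attractant of T cells, stood at 57.9 and 57 CPM in wild type and 3.25 and 3.44 CPM in RELB-/- (-4.10, SE 0.062). Pf4, platelet factor 4, went from 8.05 and 9.12 CPM to 0.166 and 0.184 CPM (-5.59). Ccl2, an attractant of monocytes, went from 14.5 and 13.8 CPM to 3.74 and 4.12 CPM (-1.85). Ccl9 (157 and 153 to 80.6 and 79.1 CPM, -0.96) showed a smaller fall than these. Both RELB-/- libraries lay below both wild-type libraries for each of the 4 genes.

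Among 26 pattern recognition genes, 15 were called lower and 8 higher (median -0.47). Cd14, the co-receptor for lipopolysaccharide, fell from 1409 and 1421 CPM to 442 and 451 CPM (-1.67). Tlr9, which senses unmethylated DNA, went from 19.6 and 19.3 CPM to 6.61 and 6.62 CPM (-1.56). The peptidoglycan sensors Nod1 (-1.39) and Nod2 (-1.40) fell too, while Tlr8, a sensor of RNA, rose from 8.49 and 9.12 to 19.3 and 19 CPM (1.12). Of 30 receptor genes, 16 were called higher and 14 lower (median 0.14). Il4ra, the IL-4 receptor chain, rose from 337 and 339.6 CPM to 923 and 944 CPM (1.46), above every other DMSO group in the 16-library fit, where its means were 1043 CPM in RELB-/- and 290.4 to 533 in the rest. Il18r1, the IL-18 receptor (15.3 and 15.5 to 0.948 and 0.841 CPM, -4.10), and Il10ra, the IL-10 receptor (18 and 17.7 to 3.44 and 3.15 CPM, -2.43), fell. Kit, the stem cell factor receptor, went from 6.58 and 7.52 to 2.54 and 1.84 CPM (-1.68).

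Interferon-stimulated genes, which cells switch on in response to type I interferon and which carry antiviral functions, were mostly lower. Of 39 tested, 35 were called lower against 27.3% of all genes, 25 of them by 2-fold or more, 3 higher and 1 was not called, with a median of -1.76. Rtp4, an interferon-induced chaperone, stood at 26 and 26.2 CPM in wild type and at 1.4 and 1.76 CPM in RELB-/- (-4.05, SE 0.10). Rsad2, the antiviral enzyme viperin, went from 17.2 and 17.6 CPM to 1.11 and 1.42 CPM (-3.79). Ifi27l2a, whose reads may be shared with a close copy, went from 25.2 and 23 CPM to 1.47 and 1.6 CPM (-3.97). In all 3 the RELB-/- libraries stood under 2 CPM, far below wild type. Oasl2 went the same way (6.3 and 5.76 to 0.0948 and 0.158 CPM, -5.55). The interferon regulatory factor Irf7 (31.2 and 30.1 to 10 and 9.72 CPM, -1.63) and the ubiquitin-like Isg15 (19.2 and 19.1 to 6.37 and 6.54 CPM, -1.57) fell less. The transducer Stat2 was not called (-0.14, adjusted p = 0.0635). The most abundant member, Ifitm1, rose from 2867 and 2733 to 3641 and 3619 CPM (0.37), and the summed level of the list went from 5696 and 5548 CPM to 5325 and 5296 CPM.

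**Figure D3:**
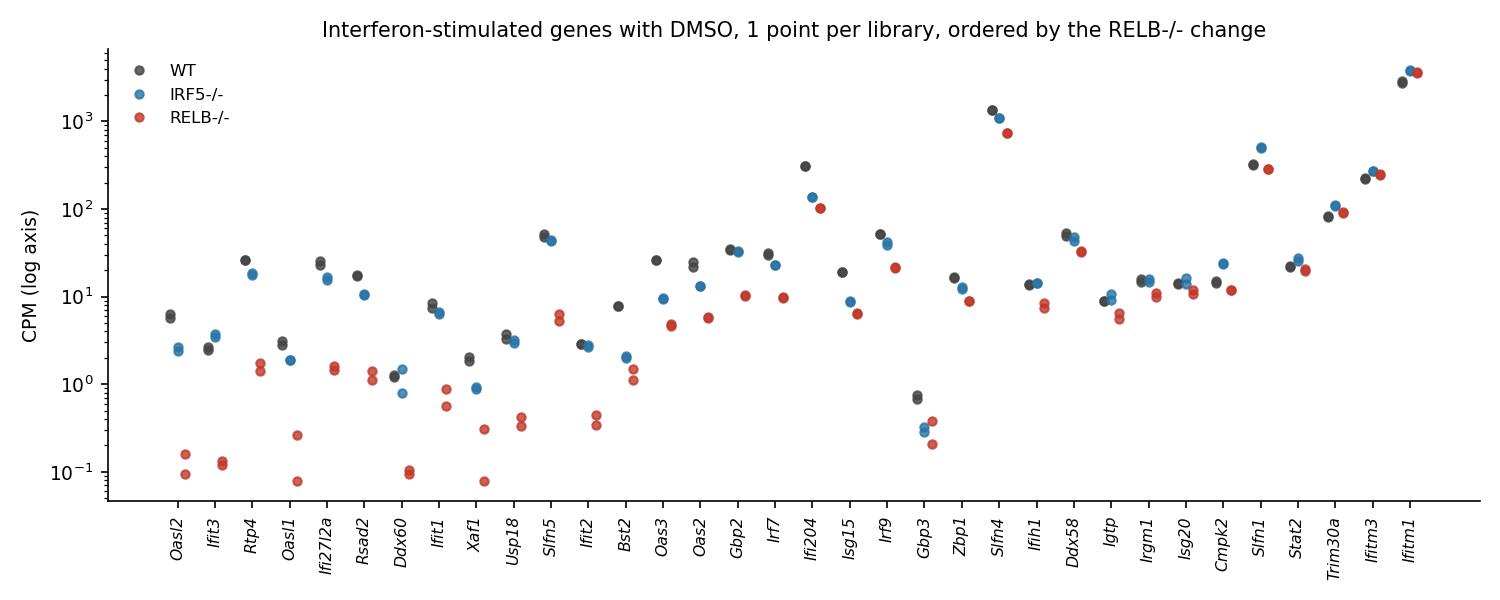
CPM on a log axis of 34 interferon-stimulated genes with a count in every library drawn, with DMSO, in wild type, IRF5-/- and RELB-/- libraries, 1 point per library, ordered by the RELB-/- change. On the left of the plot the RELB-/- points lie below both other groups, for example Rsad2 at 1.11 and 1.42 CPM against 10.3 and 10.7 in IRF5-/-, and on the right the 3 groups come close.

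Interferon-stimulated genes were also compared with the IRF5-/- libraries of the same table. The test between these 2 knockouts called 50.2% of all genes. It called 25.1% of all genes lower in RELB-/- and 25.1% higher. Of the 39 interferon-stimulated genes it called 35 lower in RELB-/- and left 4 uncalled, with a median of -1.0. Ifit1, which binds viral RNA, stood at 6.37 and 6.61 CPM in IRF5-/- and 0.569 and 0.893 CPM in RELB-/- (difference -3.16), with 7.45 and 8.49 CPM in wild type. Ifi27l2a stood at 16.6 and 15.7 CPM in IRF5-/- (difference -3.39). In the 16-library fit the list's median was -1.21 against RUNX1-/- but -0.023 against KLF6-/-, so that by the list's median the KLF6-/- libraries lay at nearly the same level. Rtp4 and Rsad2 were nevertheless lowest in RELB-/- of the 5 DMSO groups in that fit. Rtp4 means were 1.76 CPM in RELB-/-, 4.52 in KLF6-/-, 14.8 in RUNX1-/- and 20.2 in IRF5-/-.

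Stretches of 3 of these promoters follow, with capitals at each match on either strand to GAAA, 2 bases of any kind and GAAA, the letters of the interferon response element, from the same RefSeq table and build.
Rsad2, chr12:26456543-26456592, minus strand: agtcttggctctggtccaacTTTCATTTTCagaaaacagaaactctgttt
Isg15, chr4:156200855-156200916, minus strand: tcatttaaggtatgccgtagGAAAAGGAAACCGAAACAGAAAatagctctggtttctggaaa
Ifit1, chr19:34640765-34640833, plus strand: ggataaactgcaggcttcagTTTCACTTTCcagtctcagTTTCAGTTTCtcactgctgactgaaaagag
The pattern was present in 3.91% of tested genes with a promoter and in 3.44% of all promoters. It was present for 20 of the 31 interferon-stimulated genes with a promoter (64.5%). Among genes called lower by 2-fold the share was 5.54%, and among those called higher 3.75%.

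Granule genes, which mark successive stages of neutrophil maturation, separated by granule type. Among 17 genes of the specific granules, made at the myelocyte stage, 12 were called higher against 32.1% of all genes, 9 of them by 2-fold or more against 4.04%, and 5 lower, with a median of 1.21. Ltf, lactoferrin, rose from 475 and 480 CPM to 2381 and 2415 CPM (2.33, SE 0.019). Olfm4, olfactomedin 4, rose from 172 and 175 CPM to 879 and 894 CPM (2.35). Chil3 rose from 189.7 and 185 CPM to 626 and 613 CPM (1.73). In each the lower RELB-/- library exceeded the higher wild-type library at least 3-fold. Ceacam10 (49.1 and 42.5 to 198 and 194 CPM, 2.10), the antimicrobial Ngp (1232 and 1246 to 3082 and 3056 CPM, 1.31) and the cathelicidin gene Camp (79.2 and 72 to 193 and 203 CPM, 1.39) rose too. Falls in this list were small, the largest being Hp, haptoglobin, at -0.50. By the list's median the rise was not confined to RELB-/-. The median of IRF5-/- over wild type was 0.56. That of RELB-/- over IRF5-/- was 0.30, with 10 members called higher and 7 lower. In the fit that added the RUNX1-/- and KLF6-/- cultures, the median of RELB-/- was -0.029 against KLF6-/- and 1.91 against RUNX1-/-.

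Azurophil granule genes, transcribed earlier at the promyelocyte stage, went the other way: 9 of 10 tested were called lower, with a median of -1.0. The 1 uncalled gene was Prss57 (0.048, adjusted p = 0.685). Apart from Srgn and Ctsc, their levels at day 5 were low. Mpo, myeloperoxidase, went from 19.3 and 17.3 CPM to 3.18 and 3.13 CPM (-2.54). Prtn3, proteinase 3, went from 44.1 and 43.7 CPM to 13.9 and 12.6 CPM (-1.73). Ms4a3 (-1.14) and Cst7 (-0.86) fell from under 10 CPM. Gelatinase granule and late neutrophil genes were balanced, with 8 of 21 called higher, 9 lower and a median of 0.0028 whose sign turned with the fit. Ly6g, the surface antigen that marks mouse neutrophils, rose from 43.5 and 42.3 to 64.7 and 63.4 CPM (0.58), and Padi4, which citrullinates histones, from 406 and 409 to 596 and 610.2 CPM (0.57). The protease Mmp25 (3.21 and 3.38 to 1.16 and 1.29 CPM, -1.43) and the protease inhibitor Slpi (207 and 204 to 142 and 145 CPM, -0.52) fell. Of the 7 NADPH oxidase genes, 4 were called higher and 3 lower. Cybb, its catalytic subunit, rose from 261 and 259.6 to 629 and 625 CPM (1.27), and the cytosolic subunit Ncf1 fell from 2620.2 and 2607 to 1910.4 and 1946 CPM (-0.44).

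**Figure D4:**
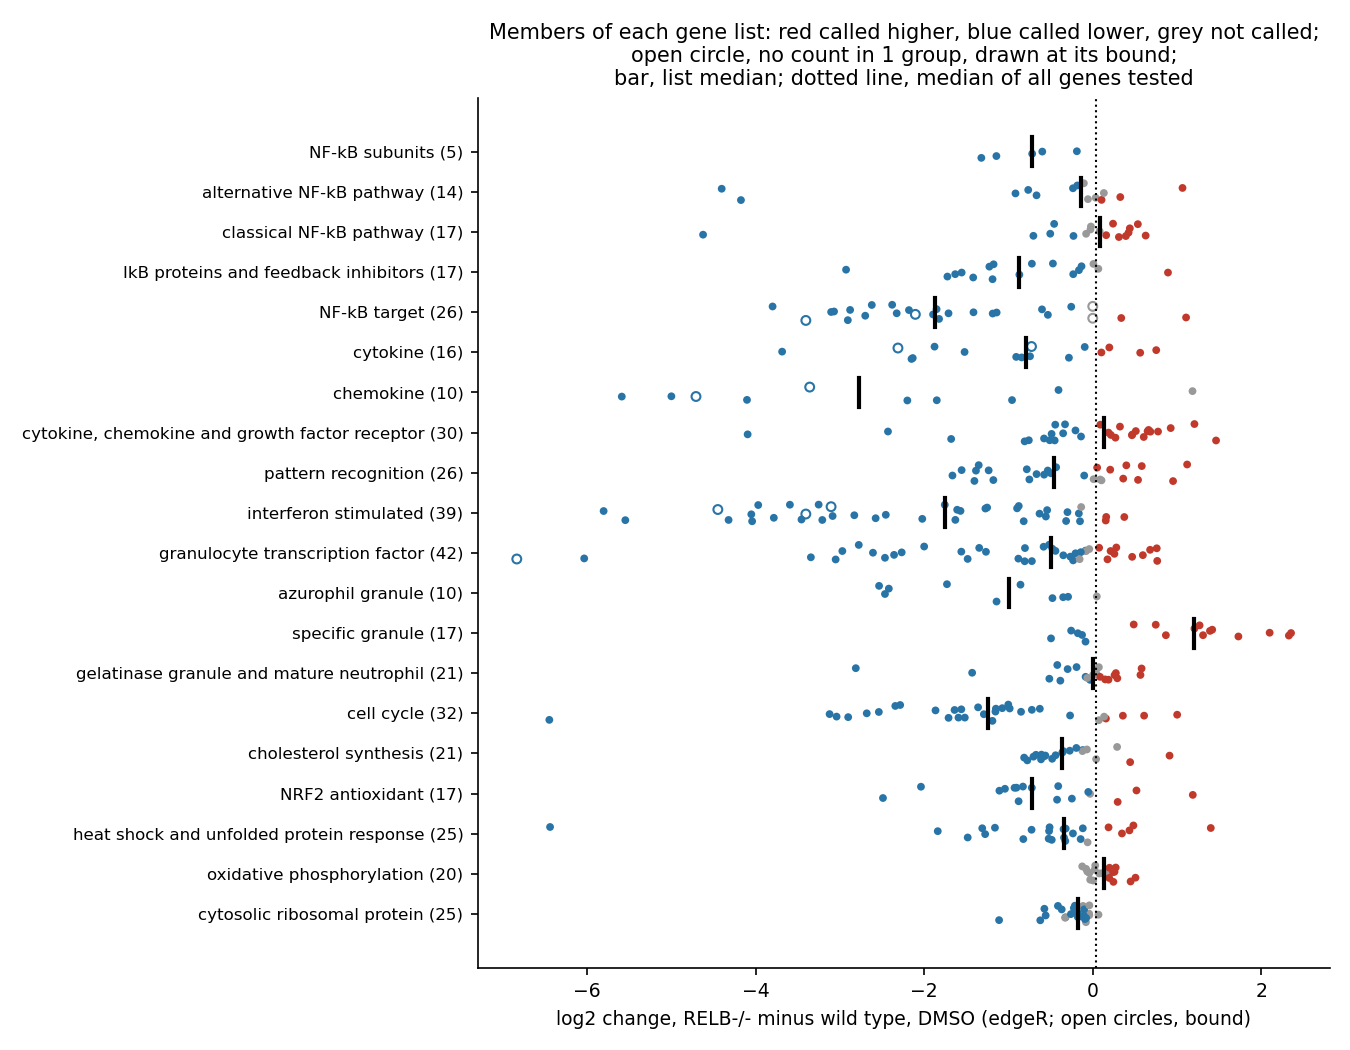
Change of every tested member of 20 gene lists, as log2 of RELB-/- over wild type with DMSO, with the number of members in brackets. Red points were called higher, blue lower and grey not called, open circles are genes without a count in 1 group drawn at their bound, and bars are medians with those bounds. NF-kB targets, chemokines and interferon-stimulated genes lie mostly left of the dotted median of all genes (0.04), and specific granule genes mostly right of it.

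Of 42 transcription factor genes of the granulocyte lineage, 29 were called lower against 27.3% of all genes, 15 of them by 2-fold or more against 11.1%, and 10 higher against 32.1% (median -0.50). Egr1, an immediate-early factor, went from 83.9 and 79.5 CPM to 9.79 and 9.9 CPM (-3.05, SE 0.049), and the nuclear receptor gene Nr4a1 from 179 and 171 to 29.8 and 27.4 CPM (-2.61). Irf8, which directs monocyte fate, went from 3.45 and 4.21 CPM to 0.379 and 0.368 CPM (-3.35). Mycn had 177 and 168 counts in wild type and none in RELB-/-, at least 114-fold lower. Cebpb, which acts in emergency granulopoiesis, fell from 1270.2 and 1250 to 717 and 723 CPM (-0.81). Cebpa, needed for granulocyte commitment, rose from 44.9 and 44.8 to 73.7 and 78.2 CPM (0.76), Stat3, which acts downstream of the G-CSF receptor, from 226 and 225 to 379.8 and 387 CPM (0.77), and Spi1, which encodes PU.1, by 0.17.

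Of 32 cell cycle genes, 26 were called lower against 27.3% of all genes, 21 of them by 2-fold or more against 11.1%, and 4 higher (median -1.24). The summed level of the list went the other way, from 899 and 899 CPM in wild type to 1062 and 1084 CPM in RELB-/-, and the abundant members Ccnd3, Cdkn1b, E2f2 and Cdkn2d were the 4 called higher. The replication licensing genes Mcm2 (6.66 and 6.98 to 0.948 and 0.867 CPM, -2.90), Mcm3 (11.3 and 10.3 to 1.61 and 0.972 CPM, -3.04) and Mcm5 (9.64 and 8.53 to 1.54 and 1.58 CPM, -2.54) fell. Cyclin D1, Ccnd1, was at 4.34 and 5.08 CPM in wild type and 0.0711 and 0.0263 CPM in RELB-/-, a few counts a library. Cyclin D3, Ccnd3, rose from 175 and 175 to 345 and 355 CPM (1.0). Against IRF5-/- libraries the cell cycle list had 6 higher and 8 lower calls and a median of -0.10.

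Genes of survival and death were mixed, with 5 of 19 called higher and 8 lower (median -0.15). The death receptor gene Fas fell from 268 and 263 CPM to 76.8 and 80.7 CPM (-1.75), the necroptosis kinase Ripk3 from 10.4 and 10.4 to 2.23 and 2.39 CPM (-2.18) and Pmaip1, the death protein Noxa, from 110.1 and 109 to 49.3 and 47.1 CPM (-1.18). Bmf, another BH3-only death gene, rose from 26.8 and 24.3 to 64.1 and 65.2 CPM (1.34). Among 13 p53 targets 8 were called lower and 4 higher. Btg2, an antiproliferative gene, fell from 348 and 348 CPM to 53.8 and 55.6 CPM (-2.67), the stress kinase gene Plk2 from 13.7 and 13.8 to 0.284 and 0.42 CPM (-5.28), and Perp (-3.82) and the cell cycle inhibitor Cdkn1a (-1.0) also fell.

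Cholesterol synthesis genes were called lower for 15 of 21 and higher for 2, with a median of -0.36. Idi1, an isomerase of the pathway, fell from 21 and 19.3 CPM to 11.7 and 11.8 CPM (-0.78), and Cyp51, its lanosterol demethylase, from 96.9 and 100.3 CPM to 61.2 and 59.9 CPM (-0.70), while the cholesterol exporter gene Abcg1 rose from 30.7 and 30.3 to 57.7 and 57.2 CPM (0.91). Against IRF5-/- libraries all 21 were called lower, with a median of -0.88 and Idi1 at 23.4 and 24.8 CPM in IRF5-/-. In the 16-library fit the list's median was -0.98 against KLF6-/- and 0.52, the opposite direction, against RUNX1-/-. Glycolysis genes were split, 9 of 17 lower and 6 higher, with Pfkp (-1.14), Ldha (-0.71) and the lactate exporter gene Slc16a3 (-0.69) falling. Oxidative phosphorylation genes had 9 of 20 called higher and 11 not called, and some other fits called 1 to 3 of them lower. The largest rise there was Atp5c1 at 0.51. Of 25 cytosolic ribosomal protein genes, 18 were called lower with a median of -0.18, the well-expressed Rps19 at -0.62.

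Of 17 NRF2 antioxidant genes, 13 were called lower and 3 higher (median -0.72). Slc40a1, the iron exporter ferroportin, fell from 88.1 and 89.2 CPM to 17 and 14.5 CPM (-2.49), the peroxiredoxin gene Prdx1 from 111 and 106 to 51.2 and 49.5 CPM (-1.11) and the quinone reductase gene Nqo1 from 6.64 and 5.71 to 1.37 and 1.63 CPM (-2.04). Gclm, a subunit of the enzyme that starts glutathione synthesis, rose from 122 and 123 CPM to 279 and 278 CPM (1.19). Of 25 heat shock and unfolded protein response genes, 19 were called lower and 5 higher (median -0.35). The endoplasmic reticulum genes Sdf2l1 (-1.84) and Pdia4 (-1.48) fell, as did Trib3 (-1.31). Chac1, which degrades glutathione, rose from 2.51 and 2.44 to 6.49 and 6.59 CPM (1.40).

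Lipid mediator genes held 2 of the largest falls among genes at that level. Alox15, the 12/15-lipoxygenase of eosinophils and macrophages, stood at 34.4 and 35.4 CPM in wild type and 0.474 and 0.473 CPM in RELB-/- (-6.19, SE 0.13). Pla2g7, which inactivates platelet-activating factor, went from 41.9 and 42.8 CPM to 1.04 and 0.867 CPM (-5.46). Both fell, as most eosinophil markers above did, and whether these falls are linked was not tested. Ltc4s, leukotriene C4 synthase, rose from 1.85 and 2.19 to 6.35 and 6.96 CPM (1.71), and Hpgds, a prostaglandin D2 synthase, fell (-1.17). Over the 11 genes of this list, 6 were called higher and 4 lower. Of 20 adhesion genes 7 were called higher against 32.1% of all genes and 8 lower against 27.3%, with the integrin genes Itgb7 (-1.06), Itgax (-0.84) and Itgb1 (-0.76) falling and Cd47, which signals against phagocytosis, rising from 281 and 286 to 494 and 495 CPM (0.80). Of 21 Fc receptor and surface antigen genes, 8 were called higher and 11 lower, among the latter Fcgr1 (-2.47), the costimulatory ligand gene Cd86 (-2.23) and Cd48 (-2.21).

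Across all genes with a mean of 16 CPM or more, the 12 largest falls were Alox15, App, Pla2g7, Ear2, Lmna, Marcks, Cxcl10, Ear1, Prg3, Prg2, Pou2f2 and Ear6. App, the amyloid precursor protein gene, went from 60.3 and 61.1 CPM to 0.853 and 1.21 CPM (-5.89). Lmna, which encodes the nuclear lamins A and C, went from 31.8 and 32.6 CPM to 1.37 and 1.73 CPM (-4.38). Marcks, an actin-regulating protein kinase C substrate, went from 72.6 and 71.3 to 3.77 and 3.6 CPM (-4.29). Pou2f2, the octamer factor Oct-2, went from 55.2 and 54.9 to 4 and 3.65 CPM (-3.84). The 12 largest rises were Cd34, Tgm1, Sema6b, Olfm4, Gpc3, Ltf, Prom1, C4b, Ceacam10, Tnfsf14, Chil3 and Ifi206. Gpc3, a cell surface proteoglycan, rose from 56.9 and 54.7 CPM to 283 and 284 CPM (2.35). Tnfsf14, the ligand LIGHT of the lymphotoxin beta receptor, rose from 38.7 and 40.9 CPM to 159.6 and 163 CPM (2.02). Tgm1, a transglutaminase (10.1 and 9 to 51.2 and 50.8 CPM, 2.42), Sema6b, a semaphorin (15 and 16.5 to 81.7 and 84.3 CPM, 2.39), Prom1, the progenitor antigen CD133 (6.66 and 5.78 to 30.8 and 28.7 CPM, 2.26), the complement gene C4b (2.15) and Ifi206 (1.70), a member of a family of close copies and so less certain, rose from lower levels. The 5 most abundant genes, S100a9, S100a8, Fth1, Actb and Lyz2, differed little by comparison, between -0.42 for the ferritin gene Fth1 and -0.032 for S100a9.

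Some genes were without counts in 1 group. Among tested genes, 104 had no count in either RELB-/- library and 27 none in either wild-type library. The best covered were Cma1 and Mycn, given above, and Hook1, a microtubule linker gene, with 98 and 91 counts in wild type and at least 62.6-fold lower in RELB-/-. In the other direction counts were small: Rbms3 had 9 and 21 counts in RELB-/- and none in wild type (at least 10.1-fold higher), Gm37571 had 14 and 13 (at least 9.06-fold) and Esrrg 11 and 7 (at least 6.04-fold). The call of Rbms3 was lost with DESeq2 (adjusted p = 0.326).

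Genes around Relb on chromosome 7 were counted because the locus was targeted. Within 500 kb, 9 of 42 tested genes were called higher and 12 lower, or 50.0%, and within 1 Mb 12 of 51 higher and 13 lower, or 49.0%, both under the 59.4% of all genes. The largest changes within 1 Mb were Ppm1n (2.04 and 2.3 to 0.19 and 0.131 CPM, -3.71), Klc3 (0.888 and 0.729 to 5.24 and 5.36 CPM, 2.71), the immediate-early gene Fosb (9.51 and 9.68 to 1.73 and 2.02 CPM, -2.36) and the adhesion gene Nectin2 (22.5 and 21.2 to 60.6 and 65.4 CPM, 1.53). The flanking genes Clasrp (0.32) and Clptm1 (0.19) changed little.

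The same knockout difference was read in 4 further libraries, treated with 50 ug/mL zymosan for 2 h. These lay outside the unstimulated contrast but shared its fit, and so its gene filter, scaling and estimate of spread. No same-sign share over all genes was computed. The test between the zymosan libraries called 56% of genes, 27.1% higher and 28.9% lower. Of the 557 genes called higher by 2-fold with DMSO, 498 had the same sign with zymosan (89.4%) and 357 were also called in that direction, while 9 were called in the opposite one. Of the 1535 lower genes, 1459 had the same sign (95%), 1260 were also called lower and 35 called higher. For Relb itself the gap narrowed: with zymosan it stood at 469 and 447 CPM in wild type and 377 and 369 CPM in RELB-/- (-0.30), and the difference between the 2 effects was 1.03 (SE 0.038, adjusted p = 3.36e-37), in an interaction test that called 31.4% of genes. Classical targets named above for their falls with DMSO also came closer. The change of Cxcl2 went from -2.91 with DMSO to -0.45 with zymosan (interaction adjusted p = 2.37e-75), that of Ptgs2 from -3.07 to -0.048 (adjusted p = 7.31e-68) and that of Tnfaip3 from -1.72 to -0.14 (adjusted p = 5.57e-57). The median of the NF-kB target list was -0.50 with zymosan. Interferon-stimulated genes had a median of -2.18 there, specific granule genes 1.11 and eosinophil markers -3.64.

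**Figure D5:**
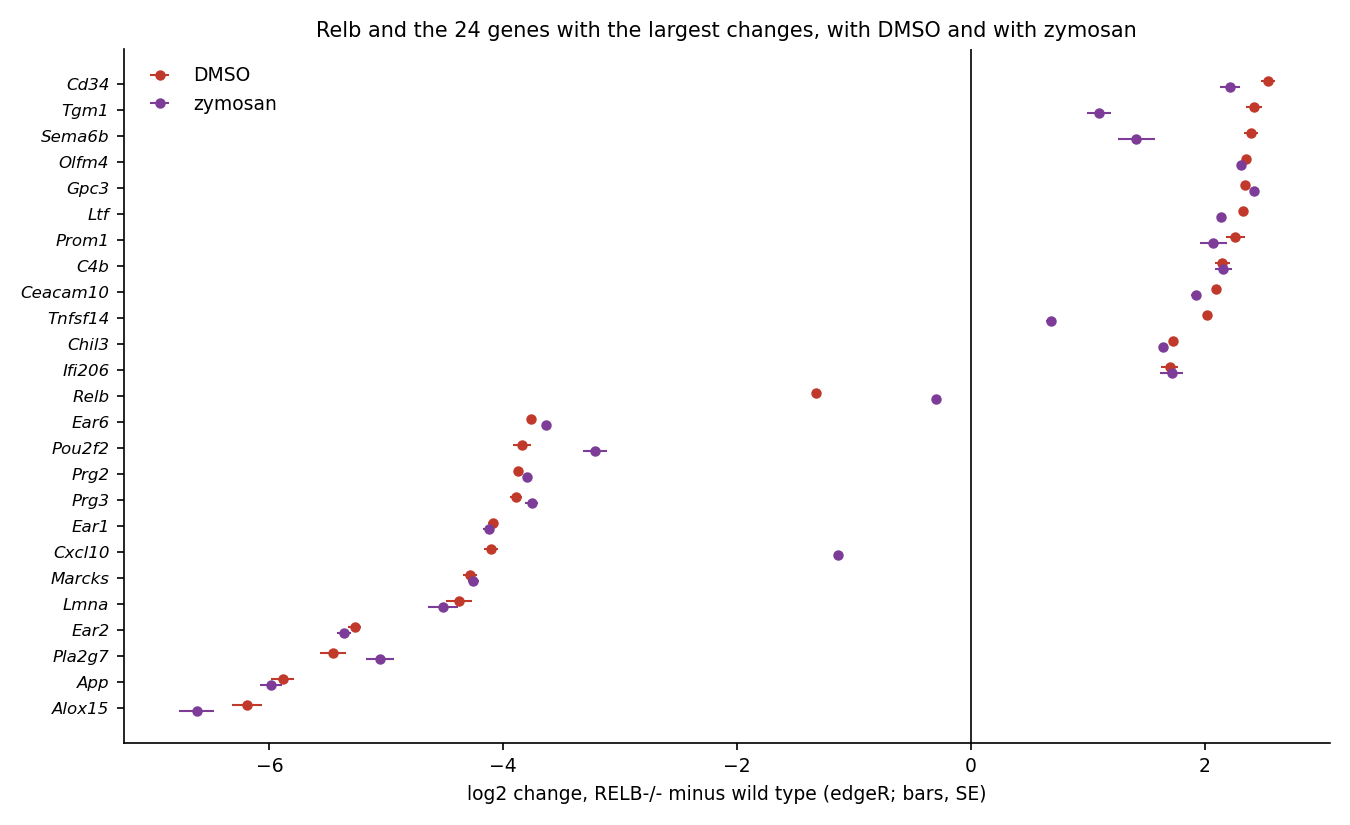
Change of Relb and of the 24 genes with the largest changes, as log2 of RELB-/- over wild type with SE, with DMSO (red) and with zymosan (purple). Most pairs of points lie close together, as for Prg2 (-3.87 and -3.79), while Cxcl10, Relb, Tgm1, Sema6b and Tnfsf14 lie nearer 0 with zymosan. The 24 were picked for their change with DMSO, a choice that favours smaller changes with zymosan.

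The direct test between RELB-/- and IRF5-/- libraries called 771 genes higher in RELB-/- by 2-fold (5.6%) and 608 lower (4.41%). Under total-count scaling, the median difference over all genes moved from 0.00 to 0.10 and the lower share of all calls from 50.1% to 34%. NF-kB inhibitors and targets had medians near 0 between the 2 knockouts, 0.053 and 0.074, but many members differed in both directions. Of 17 inhibitors, 8 were called higher in RELB-/- and 6 lower, and of 26 targets 11 higher and 5 lower. Over all genes 25.1% were called in each direction. Against the knockouts of the later table the medians of these lists were further from 0, apart from mixed signs for the inhibitors. In the fit that added those cultures, the target list's median was -0.68 against RUNX1-/- and -1.23 against KLF6-/-. The inhibitor list's median was 0.27 against RUNX1-/- and -0.40 against KLF6-/-. Tnf stood at 146 and 143 CPM in IRF5-/- against 139.9 and 143 CPM in RELB-/-. Nos2 differed widely, at 26.2 and 26.8 CPM in IRF5-/- and 124 and 129 CPM in RELB-/- (difference 2.25, adjusted p = 1.10e-63). Gpc3 was at 41.6 and 41.9 CPM in IRF5-/- (difference 2.76) and Cd34 at 16.8 and 18.8 CPM (difference 1.98).

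Few genes placed RELB-/- outside the other DMSO groups compared. The series also holds CEBPB-/-, JUNB-/- and further wild-type cultures with DMSO, which were not compared here. In the 16-library fit, 664 of 14177 genes (4.68%) were called higher in RELB-/- than in wild type and each of the 3 other knockouts, with both libraries above the other 8, and 374 (2.64%) lower. With a difference of 2-fold or more in all 4 tests, 45 genes were higher (0.317%) and 36 lower (0.254%). Examples chosen after their values were seen are, on the high side, Spsb1, which adapts proteins for ubiquitination, with means of 21.3 CPM in RELB-/- and 0.984 to 5.65 CPM in the other groups. Plscr1, a phospholipid scramblase, had 54.3 CPM against 20.7 to 25.2. On the low side were Rtp4 and Rsad2, given above, and Agpat4, an acyltransferase of phospholipid synthesis, with 2.02 CPM against 5.19 to 20.7.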

How the data were processed

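Poly(A) RNA of ER-Hoxb8 neutrophils was sequenced, and the authors deposited raw fragment counts per gene from featureCounts 1.6.3, per the file headers, run reverse-stranded (-s 2) with a mapping quality of at least 255. STAR and mm10/GRCm38 are named in the submitters' processing notes. Gene symbols were matched for 50376 of 50600 identifiers. The 12 columns repeated in a second deposited table were identical.

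The 12 libraries of 1 table were fitted in a single model (edgeR 4.0.16 quasi-likelihood test, TMM scaling, filterByExpr set to min.count 10, min.total.count 15 and min.prop 0.7; R 4.3.3). TMM factors were 1.39 to 1.41 in the 4 libraries compared and 0.751 to 0.77 in those of the same lines with zymosan, so levels set across treatments lean on that scaling. The Benjamini-Hochberg adjustment ran over all genes tested with a threshold of 0.05, and 2-fold calls also needed an absolute log2 change of 1. The fit was tried on counts simulated from its own means and spread, with few genes changed and as many up as down. In the data 59.4% of genes were called, so that simulation does not test the scaling under so many differences. No test was run on gene lists, which are described by counts and medians. Alternatives were RLE and total-count scaling, DESeq2 1.42.0, no filter, fits of 4, 6 and 16 libraries, a replicate block, a test against 1.5-fold and leaving out each library. Those of 6 and 16 libraries were chosen after seeing the data. Within-group Spearman correlations were 0.992 to 0.998.

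The members and the 39 gene lists were chosen with earlier results of these data known. Named genes were all tested NF-kB pathway members, the 12 largest rises and falls among called, non-overlapping genes with a mean log2 CPM of 4 or more, up to 4 called members per list by size with a mean log2 CPM of 1 or more, up to 3 genes per direction without a count in 1 group, 4 genes within 1 Mb of Relb and the 5 most abundant genes. Other named genes were chosen after their values were seen, and some genes that the rule names are not reported here. For genes without a count in 1 group, 3 counts over the group set the bound. Promoters run from 250 bases before to 50 after the start. The fragments counted are not known to be independent molecules, so counting limits cover counting error only.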

Additional observations from a re-analysis of the deposited data

Results flagged for a closer look

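The effect of the RELB-/- label was compared between the zymosan and the DMSO libraries by an interaction term in the same edgeR quasi-likelihood fit, which called 4330 genes (31.4%). Of Relb and the 24 genes with the largest changes, 10 of 25 were called, 4 with a higher and 6 with a lower value under zymosan. The 24 were picked for a large change with DMSO, which this term subtracts. That choice favours a move toward no change, and all 10 moved that way. Cxcl10 differed most (2.97, adjusted p = 3.69e-47), from -4.10 with DMSO to -1.14 with zymosan, followed by Tnfsf14 (-1.33, from 2.02 to 0.68) and Tgm1 (-1.33, from 2.42 to 1.09). Relb itself differed by 1.03, Sema6b by -0.98 and Pou2f2 by 0.63. The remaining 4 were smaller: Cd34 -0.32, Ltf -0.19, Ceacam10 -0.17 and Prg2 0.075. Of all interaction calls 48.6% were lower, against 51.6% with total-count scaling, 34.6% with RLE scaling, 32.2% without the count filter, 31.5% in the 16-library fit and 30.2% with DESeq2. Outside that panel, Ptgs2 (3.02), Cxcl2 (2.46) and Tnfaip3 (1.58), set beside Relb above, were called as well. No explanation was tested.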

How the results depend on the processing

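Each count of called genes stayed within 1.5 times its value, and the Relb change stayed lower and called, in every alternative run. Calls of RELB-/- against wild type numbered 8143 with RLE scaling, 8143 with total counts, 6784 with DESeq2, 7856 without the filter, 8021, 8062 and 8173 in fits of 4, 6 and 16 libraries, and 7176 to 7415 with 1 library left out. The 2-fold calls ran from 1862 (DESeq2) to 2229 (no filter), 2013 to 2081 with 1 library left out, and 2345 genes passed a test against 1.5-fold. Leaving out 1 library gave 5869 to 5981 calls against IRF5-/- and a Relb change of -1.345 to -1.313. Replicate numbers did not pair the samples: deviations of same-numbered libraries correlated between -0.033 and 0.027 over 15 pairs of groups. With a replicate block, 8119, 2085, 6851 and 4290 genes were called in the 4 counts and Relb changed by -1.323. Of 2395 recomputed values for 200 named genes, 2354 kept direction and side of the threshold, 17 lost and 8 gained a call, and 16 turned sign, all of genes uncalled near 0. Bcl3 was at -0.006023 with DESeq2, -0.006005 with RLE, -0.007247 with total counts, -0.04339 without the filter, and -0.04617, -0.04716 and -0.03223 in fits of 4, 6 and 16 libraries. With 1 library left out it ran from -0.001489 to 0.005863, at -0.001133 without RELB-/- library 1 and lowest without wild-type library 1. Birc2 was at -0.01649 without the filter, -0.01919, -0.0202 and -0.005275 in fits of 4, 6 and 16 libraries, and from -0.01054 (without wild-type library 2) to 0.06458 with 1 library left out. Tab3 ran from -0.01585 (without wild-type library 1) to 0.177 and Tradd from -0.1695 to 0.0002089 (without RELB-/- library 1). The cause was not tested. With 2 libraries a group the spread rests on few samples, and levels under 1 CPM rest on few counts.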

Other observations

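The Y-linked gene Ddx3y had 14 and 17 counts in the wild-type libraries with DMSO and 23 and 23 with zymosan, and 0 in every RELB-/-, IRF5-/-, RUNX1-/- and KLF6-/- library, while Xist had 2757 to 7815 counts in all 16.

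Across all genes, Spearman correlations of RELB-/- libraries were 0.969 with wild type, 0.980 with IRF5-/-, 0.977 with KLF6-/- and 0.935 to 0.936 with RUNX1-/-, as a description across genes, which are not independent replicates.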
